A study of Homo sapiens with 12 samples.

Results

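The genes described here encode the protein kinase complex mTORC1, the proteins that switch it on or off, and the repressors through which it acts on translation. They were chosen by symbol from the deposited count table, and all 10 symbols (DDIT4, SESN2, MTOR, RPTOR, RHEB, AKT1S1, TSC2, EIF4EBP1, EIF4EBP2 and LARP1) were found among its 57353 rows. Each matched 1 protein-coding RefSeq gene, and all 10 were among the 14955 genes with enough counts to test. The cells were HepG2, a human hepatocellular carcinoma line with hepatocyte features, labelled wild type and taken as a single line at 1 dose and 1 time. They received 10 µM sorafenib, a multikinase inhibitor used in liver cancer, or its vehicle DMSO for 12 h, and all cultures were exposed to cycloheximide before lysis to hold ribosomes on mRNA. Sucrose gradients split each lysate, usually from a pair of dishes, into a polysome pool and a light pool, the latter holding single ribosomes, free ribosomal subunits and smaller complexes. RNA from each pool was sequenced. The 12 libraries form 4 groups of 3: vehicle light, sorafenib light, vehicle polysome and sorafenib polysome, from 3 cultures per treatment as the labels number them.

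mTORC1 joins amino acid, growth factor and energy signals to protein synthesis. RHEB, a small GTPase on the lysosome, activates the MTOR kinase, the scaffold RPTOR brings substrates to it, and the TSC2 GTPase-activating protein keeps RHEB off. DDIT4 and SESN2 are stress-induced proteins that lower mTORC1 activity, and AKT1S1 (PRAS40) is an inhibitory component of the complex. When mTORC1 is inactive, the 4E-binding proteins EIF4EBP1 and EIF4EBP2 hold the cap-binding factor eIF4E away from the initiation machinery, and LARP1 represses mRNAs that begin with an oligopyrimidine tract.

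Total counts ranged from 4769383 to 13336689 in the polysome libraries and from 7387602 to 11955977 in the vehicle light libraries. The sorafenib light libraries held 2060384, 511065 and 4989312 counts. Their pairwise correlations over log2 CPM (gene counts scaled to a common library size of 1e6 counts) were 0.80 to 0.93, against 0.95 to 0.99 within the other groups. Low-count genes were therefore measured least well in that group. The counts of all 10 genes together made up 0.0367% to 0.0467% of the light libraries and 0.0542% to 0.0758% of the polysome libraries. All 10 hepatocyte and HepG2 markers were tested, and their summed share rose from 5365 to 14861 CPM in the vehicle libraries to 27298 to 35015 in the sorafenib libraries. Fibroblast and endothelial markers summed to at most 27.4 CPM in any library. Of the 4 leukocyte markers, 2 passed the count filter, and the list summed to 63.5 to 657 CPM. The part of these shares in the results below was not tested. Values are scaled within each library by trimmed mean of M-values (TMM), so each level and difference is relative to the other genes. In such bulk libraries a change in cell number and a change in RNA per cell cannot be told apart, and without unfractionated RNA neither can mRNA abundance and ribosome loading.

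The stretches of DNA just upstream of 4 genes are shown because their mRNAs were higher on polysomes after sorafenib. RefSeq windows (GRCh38.p14) were found for 8 of the 10 genes. Capitals mark matches, on either strand, to TGATGNAA (the composite element of ATF4 and C/EBP factors), CACGTG (an E-box) and CCAAT (the CCAAT box). Each sequence ends at the base before the annotated start site.
TSC2, chr16:2047735-2047984, plus strand: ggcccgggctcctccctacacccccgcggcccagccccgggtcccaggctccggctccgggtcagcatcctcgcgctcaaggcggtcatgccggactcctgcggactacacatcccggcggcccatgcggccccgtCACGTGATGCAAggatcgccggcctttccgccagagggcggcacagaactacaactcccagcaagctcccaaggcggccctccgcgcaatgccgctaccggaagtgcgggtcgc
DDIT4, chr10:72273674-72273923, plus strand: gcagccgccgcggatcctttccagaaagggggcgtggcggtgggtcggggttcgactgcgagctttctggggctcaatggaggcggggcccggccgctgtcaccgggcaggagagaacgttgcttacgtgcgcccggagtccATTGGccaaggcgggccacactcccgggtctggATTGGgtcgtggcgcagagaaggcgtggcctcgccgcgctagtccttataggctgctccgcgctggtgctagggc
SESN2, chr1:28259268-28259517, plus strand: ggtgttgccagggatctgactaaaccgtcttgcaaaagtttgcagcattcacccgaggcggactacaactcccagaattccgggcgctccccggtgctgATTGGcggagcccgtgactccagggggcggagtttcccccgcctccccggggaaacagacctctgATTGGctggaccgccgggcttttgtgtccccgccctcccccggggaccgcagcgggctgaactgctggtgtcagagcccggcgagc
MTOR, chr1:11262552-11262801, minus strand: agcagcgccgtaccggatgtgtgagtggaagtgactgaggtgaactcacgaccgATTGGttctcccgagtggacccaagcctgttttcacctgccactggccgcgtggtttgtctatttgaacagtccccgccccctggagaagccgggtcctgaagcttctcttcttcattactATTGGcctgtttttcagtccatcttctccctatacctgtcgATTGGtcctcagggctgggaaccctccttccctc

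TSC2 had the TGATGCAA match, 110 bases before its start and overlapping an E-box at 114 bases. TGATGNAA was present in 3.14% and CACGTG in 6.34% of the 35116 RefSeq windows of the same length, and no other window of the 8 genes held either. CCAAT, found in 32% of all windows, occurred at 2 positions in DDIT4, 2 in SESN2 and 3 in MTOR, and in windows of RHEB and LARP1 too. These matches describe letters, not binding.

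The first comparison asked how these mRNAs changed on polysomes under sorafenib. DDIT4, MTOR, SESN2 and TSC2 rose, AKT1S1, EIF4EBP1 and EIF4EBP2 fell, and RPTOR, RHEB and LARP1 did not pass the test. The group thus held 4 genes called higher and 3 called lower of 10, by edgeR's quasi-likelihood test at a Benjamini-Hochberg adjusted p under 0.05. Over all genes 49.7% were called, 20.9% higher and 28.8% lower, so 7 called of 10 is not far from that background. The median log2 fold change was 0.36 for the 10 genes and -0.26 for all genes. That last median ran from -0.19 to -0.03 with 4 other scalings, and no called gene of the 10 changed direction under them. For 6 of the 10 genes, the 3 sorafenib values lay wholly above or below the 3 vehicle values, and 60.2% of all genes separated in this way.

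In the light fraction EIF4EBP1 rose, AKT1S1, EIF4EBP2 and LARP1 fell, and 6 genes did not pass. Over all genes 29.4% were called there, 11.7% higher and 17.7% lower. The median was 0.05 for the 10 genes and -0.12 for all genes. With the 2 shallowest sorafenib light libraries left out, leaving 1 that was assumed to vary like the other groups, EIF4EBP1 was still called higher and EIF4EBP2 lower, while AKT1S1 (-0.79, adjusted p = 0.0746) and LARP1 (-1.01, adjusted p = 0.077) were not.

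The sorafenib effect itself differed between fractions for 5 of the 10 genes by the edgeR interaction test, against 23.6% of all genes. DDIT4, MTOR, TSC2 and LARP1 changed more upward on polysomes than in the light pool, as did 12.8% of all genes, and EIF4EBP1 more downward, as did 10.7%. The polysome and light effects for each gene are set side by side in the plot of treatment effects.

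**Figure D1:**
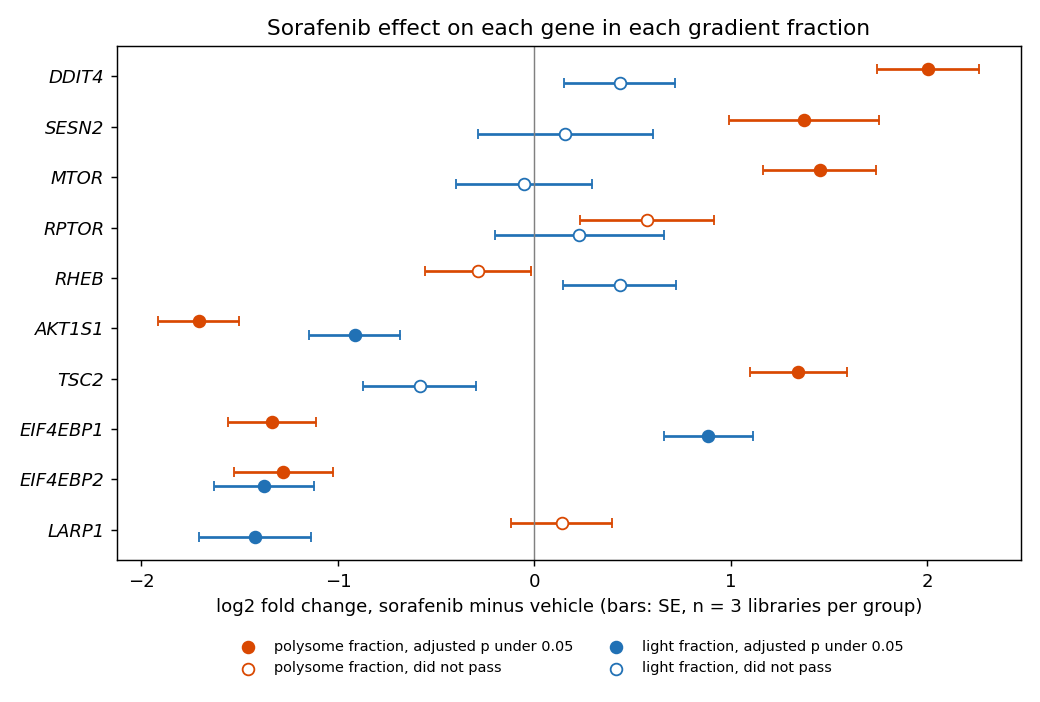
Log2 fold change of sorafenib minus vehicle (x axis) for each of the 10 genes (y axis) in the polysome fraction (orange) and light fraction (blue), with SE bars from 3 libraries per group; filled points passed at an edgeR adjusted p under 0.05. EIF4EBP1 lies on opposite sides of 0 in the fractions (-1.33 and 0.88), EIF4EBP2 on the same side (-1.28 and -1.38), and LARP1 passed in the light fraction (-1.42) but not on polysomes (0.14).

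DDIT4, also called REDD1, is a stress-induced inhibitor that acts through the TSC complex. Its vehicle levels were 22.3, 17.5 and 20.5 TMM-scaled CPM in the light libraries and 17.7, 19.1 and 23.6 in the polysome libraries. With sorafenib they were 28.8, 18.7 and 29.9 in the light libraries and 98.1, 50.1 and 94.9 on polysomes. The sorafenib polysome libraries thus stood above all 9 others, and the other 3 groups overlapped one another. DDIT4 rose 4.01-fold on polysomes, a log2 fold change of 2.01 ± 0.26 (SE, n = 3 per group, edgeR adjusted p = 9.15e-06). In the light fraction it was at 0.43 ± 0.28 (adjusted p = 0.259). The difference between these effects was 1.57 ± 0.38 (edgeR interaction, adjusted p = 0.00561).

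SESN2 encodes Sestrin2, which binds the GATOR2 complex and senses leucine. On polysomes its levels were 7.62, 5.49 and 12.4 TMM-scaled CPM with vehicle and 29.9, 10.1 and 27.6 with sorafenib. Sorafenib library 2 fell inside the vehicle range, so the groups overlapped. The log2 fold change was 1.37 ± 0.38 (edgeR adjusted p = 0.00633). In the light libraries the levels were 12.7, 9.26 and 12 with vehicle and 13.5, 1.87 and 15.6 with sorafenib. The value of 1.87 rests on a single count in the shallowest library. The light-fraction fold change was 0.16 ± 0.45 (adjusted p = 0.819). The interaction was 1.22 ± 0.59 and did not pass (adjusted p = 0.141), but it did in 4 of 20 alternatives, among them each culture as a block (1.53, adjusted p = 0.00695).

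MTOR, the kinase itself, had polysome levels of 8.47, 8.51 and 6.68 TMM-scaled CPM with vehicle and 22.3, 20.4 and 22 with sorafenib. These groups were far apart and each was tight. The log2 fold change was 1.45 ± 0.29 (edgeR adjusted p = 4.52e-04). In the light libraries its levels were 9.86, 11.5 and 15.8 with vehicle and 16.4, 18.7 and 6.31 with sorafenib, where library 3, the deepest of the 3, was lowest and libraries 1 and 2 were above every vehicle library. The fold change there was -0.05 ± 0.35 (adjusted p = 0.925), its sign turned under each of the 4 other scalings, and it was -0.80 without both shallow sorafenib light libraries. The interaction was 1.51 ± 0.45 (adjusted p = 0.0198), and 1.21 with library totals as the only scale (adjusted p = 0.0717).

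RPTOR encodes Raptor, the substrate-recruiting subunit. Its polysome levels were 4.77, 10.8 and 8.28 TMM-scaled CPM with vehicle and 12.8, 9.17 and 12.8 with sorafenib, and the groups overlapped. The log2 fold change of 0.57 ± 0.34 did not pass (edgeR adjusted p = 0.169), with a 95% interval of -0.14 to 1.29. It passed when the polysome samples were fitted alone (0.79, adjusted p = 0.0403) and in 6 other alternatives. In the light libraries the levels were 6.21, 8.77 and 8.09 with vehicle and 6.46, 22.4 and 6.54 with sorafenib. Library 2, whose value rests on 12 counts, was above the rest. Without it the light-fraction fold change went from 0.23 to -0.12.

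RHEB had polysome levels of 80.6, 76.7 and 158 TMM-scaled CPM with vehicle and 101, 72.4 and 85.8 with sorafenib. Vehicle library 3 was the highest of all 12, and the groups overlapped. The fold change on polysomes was -0.29 ± 0.27 (edgeR adjusted p = 0.392), with a 95% interval of -0.85 to 0.28, and was 0.12 without that library. In the light libraries the levels were 49.5, 39.7 and 61.2 with vehicle and 74, 48.6 and 74.7 with sorafenib, again overlapping, at 0.44 ± 0.29 (adjusted p = 0.267).

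TSC2 encodes tuberin, the catalytic subunit of the TSC complex. Its polysome levels were 4.62, 5.85 and 6 TMM-scaled CPM with vehicle and 15, 13.2 and 13.4 with sorafenib, without overlap. It rose by 1.34 ± 0.25 on the log2 scale (edgeR adjusted p = 2.29e-04). In the light libraries the levels were 13.8, 13.4 and 18.5 with vehicle and 9.98, 15 and 8.64 with sorafenib, an overlap, at -0.58 ± 0.29 (adjusted p = 0.132). Sorafenib polysome levels thus lay in the range of the light libraries, and the vehicle polysome group stood alone below the other 9 libraries. The interaction was 1.93 ± 0.38 (adjusted p = 0.00128). PKD1, which overlaps TSC2 in RefSeq, had 1055 counts in all against 1131 for TSC2. PKD1 was at -0.38 on polysomes (adjusted p = 0.405) and fell by 1.43 in the light fraction (adjusted p = 0.0421).

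AKT1S1 was lower after sorafenib in both pools. Its polysome levels were 44.3, 44.3 and 48.7 TMM-scaled CPM with vehicle and 13.6, 15.9 and 12.5 with sorafenib. Its light levels were 36.6, 44.1 and 32.6 with vehicle and 19.4, 22.4 and 19.6 with sorafenib. Neither pair of groups overlapped, and all 6 vehicle libraries were above all 6 sorafenib libraries. AKT1S1 fell by 1.71 ± 0.21 on polysomes (edgeR adjusted p = 5.08e-06) and fell by 0.91 ± 0.23 in the light fraction (adjusted p = 0.00632). The light-fraction call was lost with library totals as the only scale (-0.48, adjusted p = 0.141), without vehicle light library 2 (-0.72, adjusted p = 0.0725) and without sorafenib light library 1 (-0.79, adjusted p = 0.058). The interaction of -0.79 ± 0.31 missed the threshold (adjusted p = 0.0681, 95% interval -1.44 to -0.15) and passed with library totals (-1.09, adjusted p = 0.0209). TBC1D17, which overlaps AKT1S1 in RefSeq and had 864 counts against 2913, was at -0.51 on polysomes (adjusted p = 0.108) and was lower in the light fraction (adjusted p = 9.85e-04).

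**Figure D2:**
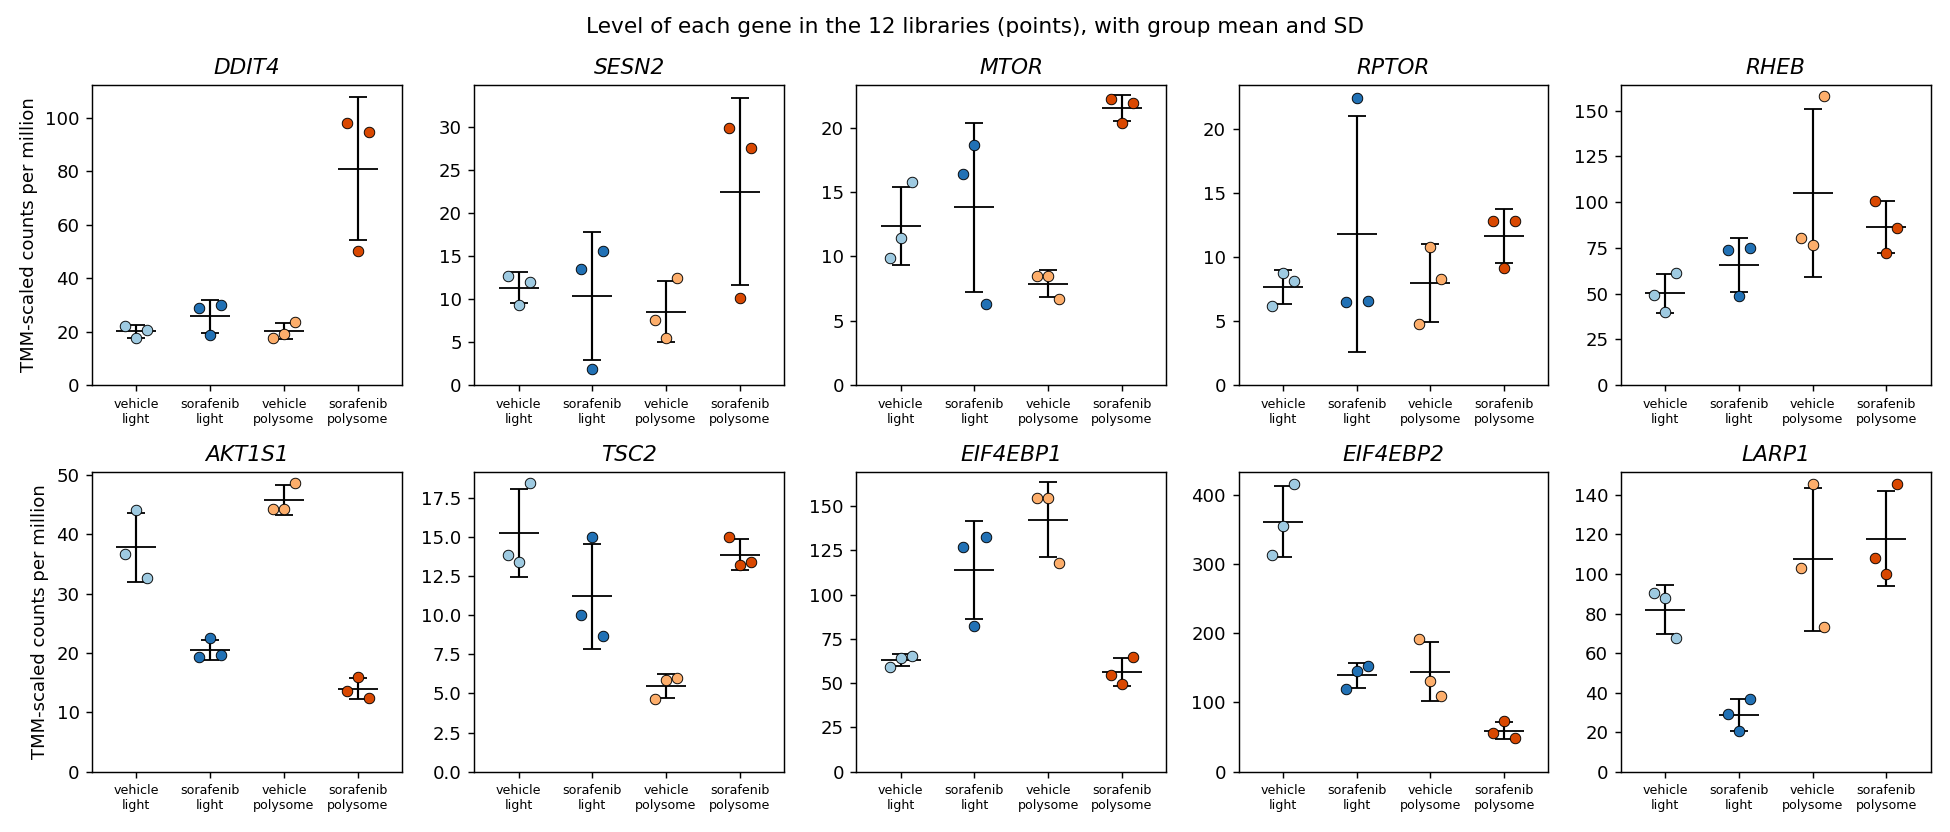
TMM-scaled CPM (y axis, from 0, a scale of its own for each gene) in the 3 libraries (points) of each of the 4 groups (x axis), with the group mean (long bar) and SD (error bars). DDIT4 is highest in the sorafenib polysome libraries (50.1 to 98.1), AKT1S1 is lower in all 6 sorafenib libraries, and LARP1 is lowest in the sorafenib light libraries (20.6 to 36.7).

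EIF4EBP1, the best studied 4E-binding protein, was lower on polysomes and higher in the light pool after sorafenib. Polysome levels were 155, 155 and 118 TMM-scaled CPM with vehicle and 54.7, 49.5 and 65 with sorafenib. Light levels were 59, 64.5 and 65.4 with vehicle and 127, 82.3 and 133 with sorafenib. Neither pair overlapped, and the order of the pools was turned: vehicle polysome and sorafenib light levels were high, with overlapping ranges, and vehicle light and sorafenib polysome levels were low. EIF4EBP1 fell by 1.33 ± 0.22 on polysomes (edgeR adjusted p = 9.40e-05) and rose by 0.88 ± 0.23 in the light fraction (adjusted p = 0.00694). The latter call was lost without a low-count filter (0.76, adjusted p = 0.144). The interaction of -2.22 ± 0.32 (adjusted p = 1.13e-04) lay at the 4.85 percentile of all genes.

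EIF4EBP2, the second 4E-binding protein, behaved otherwise. Polysome levels were 192, 131 and 110 TMM-scaled CPM with vehicle and 55.8, 73.2 and 49.4 with sorafenib. Light levels were 313, 354 and 415 with vehicle and 119, 146 and 152 with sorafenib. The groups did not overlap in either pool, and within each treatment the light level was the higher one. EIF4EBP2 fell by 1.28 ± 0.25 on polysomes (edgeR adjusted p = 4.11e-04) and fell by 1.38 ± 0.26 in the light fraction (adjusted p = 6.91e-04). The polysome call was lost without a low-count filter (-0.88, adjusted p = 0.0618). The difference between the effects was 0.10 ± 0.35 (adjusted p = 0.871), with a 95% interval of -0.64 to 0.84.

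The count ratio of EIF4EBP1 to EIF4EBP2 within a library needs no scaling between libraries, and gene length cancels when it is compared between them. This ratio was chosen after the values were seen and is given as a description. Its log2 was -2.41, -2.46 and -2.67 in the vehicle light libraries and 0.09, -0.83 and -0.20 in the sorafenib light libraries. It was -0.31, 0.24 and 0.11 in the vehicle polysome libraries and -0.03, -0.56 and 0.40 in the sorafenib polysome libraries. The vehicle light group stood apart at -2.51 ± 0.14 (SD, n = 3), and the other 3 groups overlapped, at means of -0.31, 0.01 and -0.07.

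**Figure D3:**
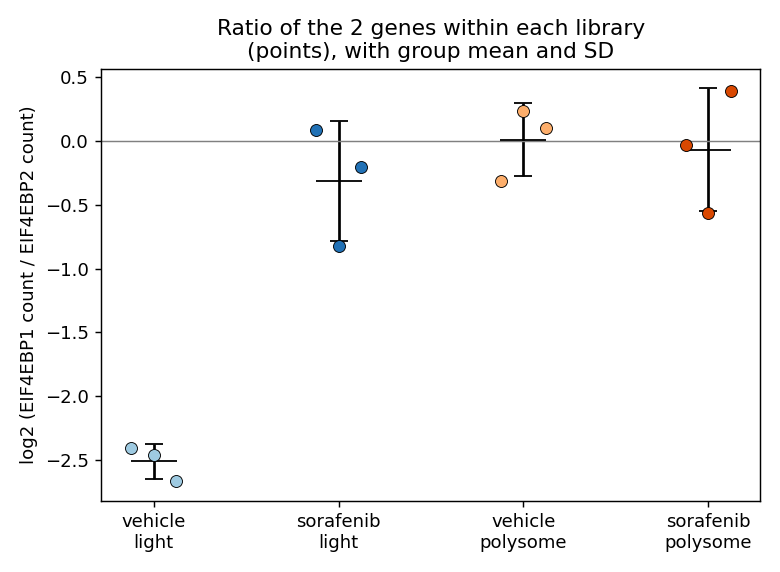
Log2 ratio of the EIF4EBP1 count to the EIF4EBP2 count (y axis) in each library (points) of the 4 groups (x axis), with group mean and SD. The vehicle light libraries lie between -2.67 and -2.41, below the other 9, which lie between -0.83 and 0.40.

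LARP1 encodes the repressor of oligopyrimidine-tract mRNAs. Its polysome levels were 103, 145 and 73.3 TMM-scaled CPM with vehicle and 108, 100 and 145 with sorafenib, and the groups overlapped. The fold change there was 0.14 ± 0.26 (edgeR adjusted p = 0.673), with a 95% interval of -0.40 to 0.67. In the light libraries the levels were 90.2, 88.1 and 67.6 with vehicle and 29.4, 20.6 and 36.7 with sorafenib. All 3 sorafenib light libraries were below the other 9. LARP1 fell there by 1.42 ± 0.29 (adjusted p = 0.00122). The interaction was 1.56 ± 0.38 (adjusted p = 0.00607).

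Since each culture gave both pools, the polysome over light ratio was taken within each culture. The vehicle cultures had log2 ratios for LARP1 of 0.19, 0.72 and 0.12, and the sorafenib cultures 1.87, 2.27 and 1.98. For DDIT4 the ratios were -0.33, 0.12 and 0.20 with vehicle and 1.76, 1.41 and 1.66 with sorafenib. Every sorafenib culture was above every vehicle culture for both genes. For EIF4EBP1 they were 1.39, 1.26 and 0.85 with vehicle and -1.21, -0.73 and -1.03 with sorafenib, so that all vehicle cultures were above 0 and all sorafenib cultures below it. TSC2 went from -1.54, -1.16 and -1.58 to 0.58, -0.18 and 0.62. MTOR went from -0.21, -0.42 and -1.21 to 0.43, 0.12 and 1.76. In both genes the treatments separated, with a wide spread among sorafenib cultures. AKT1S1 had ratios of 0.27, 0.01 and 0.58 with vehicle and -0.51, -0.49 and -0.64 with sorafenib. SESN2 and RHEB separated too, while EIF4EBP2 and RPTOR overlapped. The ratios of 39.5% of all genes did not overlap between treatments, and the median ratio of all genes was -0.06 to -0.03 in vehicle and 0.04 to 0.13 in sorafenib cultures.

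**Figure D4:**
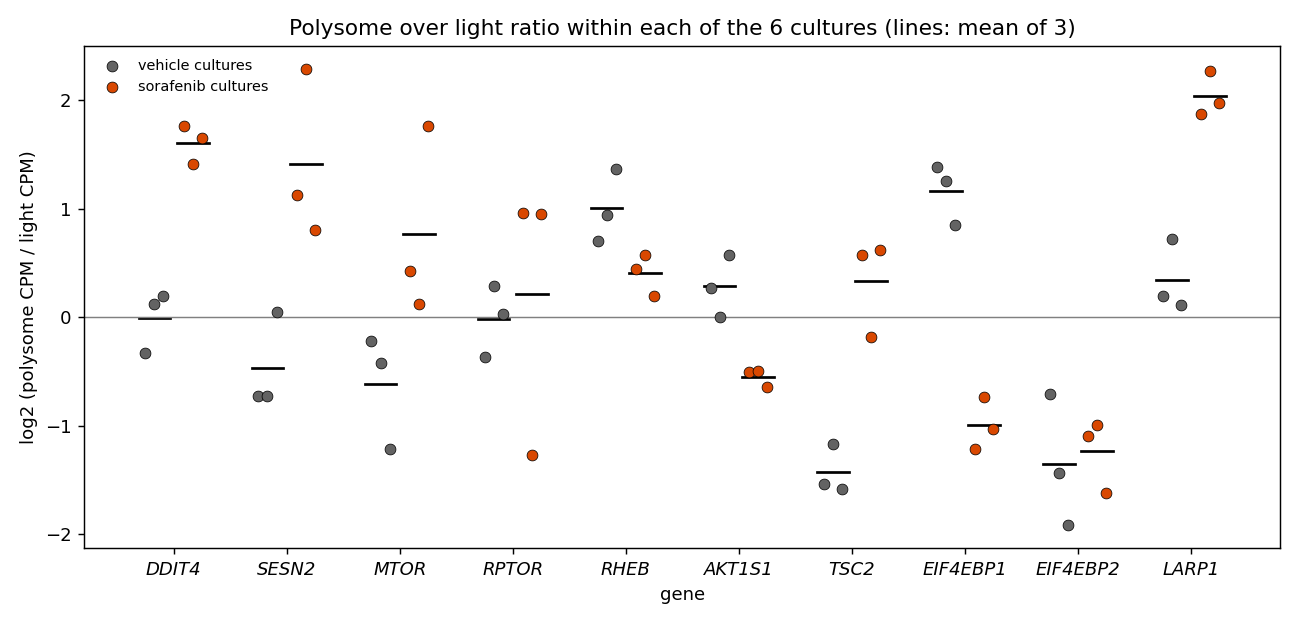
Log2 ratio of the TMM-scaled polysome level to the light level (y axis) of each gene (x axis) in the 3 vehicle cultures (grey) and 3 sorafenib cultures (orange), with lines at the means. EIF4EBP1 is above 0 in all vehicle cultures and below 0 in all sorafenib cultures, LARP1 is at 1.87 to 2.27 with sorafenib, and EIF4EBP2 is below 0 in all 6.

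A further comparison asked where the mRNAs sat in each treatment. In vehicle cells EIF4EBP1 (1.18 ± 0.22, edgeR adjusted p = 4.11e-04) and RHEB (1.07 ± 0.28, adjusted p = 0.00514) were higher on polysomes than in the light pool. TSC2 (-1.47 ± 0.25, adjusted p = 1.70e-04) and EIF4EBP2 (-1.32 ± 0.25, adjusted p = 4.07e-04) were lower. The other 6 did not pass, where 36.1% of all genes did. Without vehicle polysome library 3, RHEB was at 0.66 (adjusted p = 0.0695). In sorafenib cells DDIT4 (1.58 ± 0.28, adjusted p = 4.87e-04) and LARP1 (1.95 ± 0.29, adjusted p = 1.09e-04) were higher on polysomes. EIF4EBP1 (-1.04 ± 0.23, adjusted p = 0.00256) and EIF4EBP2 (-1.22 ± 0.26, adjusted p = 0.00192) were lower, against 25.8% of all genes called in either direction. EIF4EBP1 was not called lower without sorafenib light library 1 (-0.80, adjusted p = 0.0547) or library 3 (-0.60, adjusted p = 0.0863). Its call was also lost with TMM within each fraction (-0.25, adjusted p = 0.372) and without a low-count filter (-0.41, adjusted p = 0.371). EIF4EBP2 was not called lower with TMM within each fraction (-0.43, adjusted p = 0.172) or without a low-count filter (-0.57, adjusted p = 0.245). With the culture as a block, MTOR (0.89, adjusted p = 0.046) and SESN2 (1.07, adjusted p = 0.0115) were called higher as well. MTOR was called in 13 of 21 alternatives in all, up to 1.90, and SESN2 in 6.

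Comparisons between pools depend on how they are scaled to each other. The median of all genes was -0.06 in vehicle and -0.00369 in sorafenib cells with TMM, but 0.82 and 0.60 with library totals alone, where 5 and 6 of the 10 genes were called higher and 0 and 1 lower. Of all genes, 48.9% and 37.4% were called higher with that scale and 5.86% and 6.11% lower. With library totals EIF4EBP2 was at -0.44 and TSC2 at -0.59 in vehicle cells, and EIF4EBP1 at -0.45 in sorafenib cells, all without a call.

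The rest of the pathway was described through 5 lists, whose counts stand beside all-gene shares of 20.9% higher and 28.8% lower on polysomes and 11.7% higher and 17.7% lower in the light pool. On polysomes 4 of 29 tested genes of the lysosomal amino acid sensing arm rose and 10 fell, at a median of 0.12, against 20.9% and 28.8% of all genes. All 5 subunits of Ragulator, which anchors the Rag GTPases to the lysosome, fell: LAMTOR1 by 1.37 ± 0.23, LAMTOR2 by 1.01, LAMTOR3 by 0.71, LAMTOR4 by 1.19 and LAMTOR5 by 1.08 (edgeR adjusted p = 1.06e-04 to 0.0233). This complex was singled out after its values were seen, and LAMTOR3 was called in 2 of the 6 settings examined (the main fit, 4 other scalings, and the fit without both shallow libraries). In the light pool LAMTOR2 (0.88) and LAMTOR4 (1.10) rose, LAMTOR1 fell (-0.80, called in 4 of 6 settings), and the other two did not pass. ITFG2, a subunit of the KICSTOR complex, rose by 1.70 ± 0.33 on polysomes (adjusted p = 4.08e-04) and fell by 1.96 ± 0.41 in the light fraction (adjusted p = 0.00159), at levels of 2.33 to 14 TMM-scaled CPM in group means. SEC13, a subunit of GATOR2 and of COPII coats, rose in the light pool (0.94 ± 0.23, adjusted p = 0.00486), where 5 genes of the list rose and 3 fell. The list median in the light pool was 0.07, and -0.0095 without both shallow sorafenib light libraries. For all genes these medians were -0.12 and -0.07.

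Of 11 tested genes for other mTOR complex subunits and inhibitors, 4 rose and 4 fell on polysomes, at a median of -0.10 (all genes 20.9% and 28.8%). TTI2 rose by 1.13 ± 0.26 (edgeR adjusted p = 0.00134). TELO2 (1.17) and TTI1 (0.98), which form the kinase-assembling TTT co-chaperone with TTI2 and were singled out after their values were seen, rose as well. In the light pool TELO2 fell by 1.32 (adjusted p = 0.0145, called in 5 of 6 settings), TTI1 fell by 0.80 (adjusted p = 0.0472, called in 1 of 6), and TTI2 was at 0.34 (adjusted p = 0.434). MAPKAP1, the SIN1 subunit of mTORC2, fell on polysomes (-1.43 ± 0.27, adjusted p = 3.15e-04) and in the light pool (-2.02 ± 0.29, adjusted p = 9.56e-05). Other mTORC2 subunits differed on polysomes. RICTOR rose (1.13 ± 0.39, edgeR adjusted p = 0.0206, called in 6 of 6 settings), and PRR5 fell (-0.84, adjusted p = 0.00901, called in 3 of 6). In the light pool RICTOR was at 0.21 (adjusted p = 0.768) and PRR5 at -0.27 (adjusted p = 0.478). MLST8, shared by both mTOR complexes, fell on polysomes (-0.46, adjusted p = 0.0456), a call made in 1 of 6 settings. It fell in the light pool (-0.84 ± 0.20, adjusted p = 0.00356), called in 4 of 6 settings (-0.84 to -0.39). There 0 genes of the list rose and 4 fell (all genes 11.7% and 17.7%), at a median of -0.17, or -0.30 without both shallow libraries. TSC1, the partner of TSC2, was at -0.10 on polysomes (adjusted p = 0.769) and -0.17 in the light pool (adjusted p = 0.692). TBC1D7, the third subunit of the TSC complex, fell on polysomes (-0.81 ± 0.22, edgeR adjusted p = 0.00592, called in 6 of 6 settings). It was at 0.43 in the light pool (adjusted p = 0.209).

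Among 18 tested upstream kinases and phosphatases, 3 rose and 2 fell on polysomes and 1 rose and 4 fell in the light pool, with medians of -0.20 and -0.62. The all-gene shares were 20.9% and 28.8% on polysomes and 11.7% and 17.7% in the light pool. The 2 genes lower on polysomes were AKT1 (-0.97, edgeR adjusted p = 0.00267) and STK11 (-0.77, adjusted p = 0.00425). Both were called lower on polysomes in 6 of 6 settings. PRKAA1, a catalytic subunit of the energy sensor AMPK, rose by 1.39 ± 0.30 on polysomes (edgeR adjusted p = 8.19e-04), and RPS6KA3, an ERK-activated kinase, by 1.21 ± 0.26 (adjusted p = 0.00102). PRKAA2, the other AMPK catalytic subunit, was at -0.54 on polysomes (adjusted p = 0.103). It fell in the light pool (-1.11 ± 0.33, adjusted p = 0.0155, called in 4 of 6 settings), where PRKAA1 was at 0.20 (adjusted p = 0.684). AKT1 (-1.20 ± 0.26, adjusted p = 0.0022) and STK11, the AMPK-activating kinase LKB1 (-0.89 ± 0.22, adjusted p = 0.00559), fell in the light pool. Without both shallow sorafenib light libraries, the list median in the light pool was -0.15, against -0.07 for all genes.

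Among 13 mTORC1 substrates and effectors, 3 rose and 3 fell on polysomes and 1 rose and 5 fell in the light pool, with medians of -0.15 and -0.55, beside the same all-gene shares of 20.9%, 28.8%, 11.7% and 17.7%. POLDIP3, a partner of S6 kinase, rose on polysomes (1.47 ± 0.22, edgeR adjusted p = 3.84e-05). RPS6KB2, an S6 kinase, fell there (-0.81 ± 0.21, adjusted p = 0.00335) and in the light pool (-1.26 ± 0.21, adjusted p = 3.37e-04). EIF4B, a helicase cofactor, fell in the light pool (-1.97 ± 0.33, adjusted p = 3.51e-04) and rose on polysomes (1.05). Without both shallow libraries the list median in the light pool was -0.26, against -0.07 for all genes.

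Of 19 cap-binding complex genes and other repressors, 6 rose and 4 fell on polysomes, at a median of 0.15 (all genes 20.9% and 28.8%). EIF4E, the target of the 4E-binding proteins, was at -0.02 on polysomes (edgeR adjusted p = 0.948) and 0.59 in the light pool (adjusted p = 0.0521), where it was called higher in the other 5 of 6 settings (up to 1.04). The scaffold EIF4G1 (1.46), the helicases EIF4A1 (1.00) and EIF4A2 (1.04), and PDCD4 (0.84), which inhibits that helicase, rose on polysomes. CYFIP1, an eIF4E-binding repressor, rose by 1.65 ± 0.25 (adjusted p = 3.76e-05). EIF4E2, the cap-binding repressor 4EHP, fell by 1.90 ± 0.20 (adjusted p = 1.61e-06). Its mean level (± SD over 3 libraries) was 200 ± 28.8 TMM-scaled CPM with vehicle and 53.7 ± 3.51 with sorafenib. In the light pool 1 gene rose and 2 fell (all genes 11.7% and 17.7%). GIGYF1, a partner of 4EHP, fell there by 2.95 ± 0.67 (adjusted p = 0.00306, -4.20 to -2.50 over 6 settings). Its mean went from 19.5 ± 4.38 to 5.26 ± 6.79 TMM-scaled CPM, with an SD above the mean. GIGYF1 fell on polysomes too (-1.47 to -1.21 over the settings). GIGYF2, another partner of 4EHP, went the other way there (0.54 to 0.80, called higher in 6 of 6 settings). LARP4, a poly(A)-binding relative of LARP1, fell in the light pool by 0.77 ± 0.27 (adjusted p = 0.0378), a call made in 1 of 6 settings (-0.77 to -0.32). The list median in the light pool was 0.04, and 0.08 without both shallow libraries, where that of all genes was -0.07. On polysomes, each of the 4 other scalings called 8 genes of this list higher and 4 lower, and 7 genes of the sensing arm higher with 7 to 10 lower. Of all genes, those scalings called 22.4% to 26.2% higher and 21% to 26.5% lower on polysomes.

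**Figure D5:**
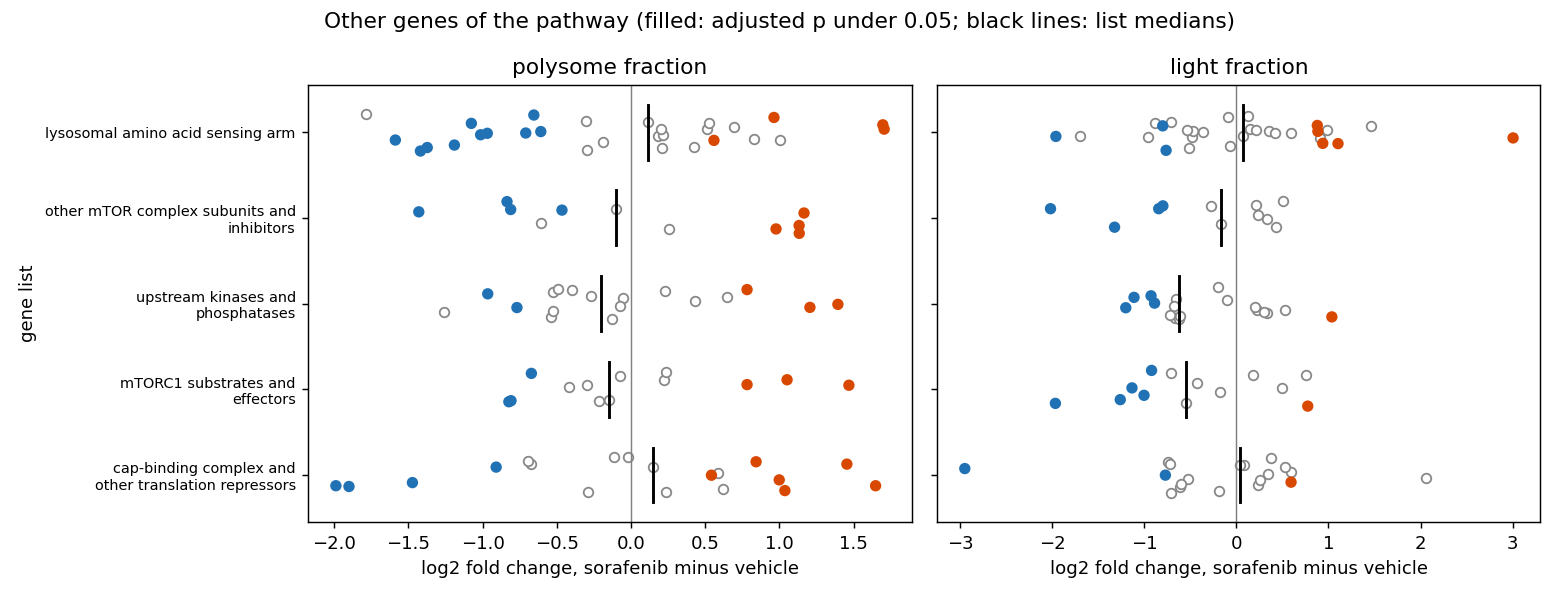
Log2 fold change of sorafenib minus vehicle (x axis) for each tested gene of the 5 pathway lists (y axis) in the polysome fraction (left) and light fraction (right); filled points passed at an edgeR adjusted p under 0.05 (orange higher, blue lower), and black lines mark list medians. In the sensing arm 10 of 29 genes were lower on polysomes, and in the light fraction 5 of 13 substrates and effectors were lower.

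The genes whose log2 levels ran most alike over the 12 libraries, among 8982 well-counted genes, were named as a description, since the points share libraries and depth. For DDIT4 they were YARS, the tyrosyl-tRNA synthetase (r = 0.97), and PACSIN2 (r = 0.97), and for SESN2 the co-chaperone BAG3 (r = 0.94) and ABI1 (r = 0.94). MTOR ran with THADA (r = 0.92) and ACP2 (r = 0.91), RPTOR with NRP1 (r = 0.88) and MYO1C (r = 0.86), and RHEB with SNX17 (r = 0.94) and CMAS (r = 0.93). AKT1S1 was closest to FAM120AOS and RSPH3 (r = 0.97 each), and TSC2 to MYBBP1A (r = 0.98) and ADCK5 (r = 0.95). EIF4EBP1 was closest to CIAO2B (r = 0.97) and the mitochondrial mRNA-binding SLIRP (r = 0.95), EIF4EBP2 to PBX3 and COMMD6 (r = 0.97 each), and LARP1 to FAM53B (r = 0.96) and FBXO31 (r = 0.95). Among the 10 genes themselves, r ran from -0.86 for TSC2 with EIF4EBP1 to 0.72 for MTOR with TSC2, and DDIT4 with SESN2 had 0.71.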

How the data were processed

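The authors deposited whole-number counts per gene symbol with no scaling applied. GRCh38.p12 is the build named by the submitters' processing notes; aligner, counting tool, annotation and strand use were not given in the sources used here. Reads in overlapping genes are therefore uncertain. The counts went into edgeR 4.0.16 (R 4.3.3): filterByExpr kept 14955 genes, libraries were scaled by TMM, and a single quasi-likelihood model of the 4 groups, with no block, gave all 5 contrasts. A call was a Benjamini-Hochberg adjusted p under 0.05 over the tested genes, and each SE was derived from the log2 fold change and its F statistic. Precision follows depth, 511065 to 13336689 counts per library. The labels speak of triplicate experiments; if cultures were not separate, p-values cover technical spread. No replicate pair agreed within sampling noise (chi-square over its degrees of freedom, 8.82 to 46.1). Both fractions of a culture carry its number in the labels; their deviations from group means correlated at -0.07 to 0.33. Alternatives covered scaling, filter, DESeq2 1.42.0, blocks, fitted samples and left-out libraries. The model was tested on simulated data. Named genes were all 10 members, up to 2 called genes by p of each list and treatment contrast, and the 2 genes most correlated with each member; other names were chosen after their values were seen. Members and lists were chosen with earlier results of these data known. Figures used matplotlib 3.10.9.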

Additional observations from a re-analysis of the deposited data

Results flagged for a closer look

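The sorafenib effect on polysomes differed from that in the light fraction, by the edgeR interaction test, for 5 of the 10 mTORC1 genes and for 18 of the 90 tested genes of the pathway lists, against 23.6% of all genes. Values are the polysome effect minus the light effect on the log2 scale (n = 3 libraries per group). Among the mTORC1 genes these were DDIT4 (1.57), MTOR (1.51), TSC2 (1.93), EIF4EBP1 (-2.22) and LARP1 (1.56). Among list genes named by p they were ITFG2 (3.66), EIF4B (3.02), EIF4E2 (-1.71) and CYFIP1 (1.40). Among list genes singled out after their values were seen they included LAMTOR2 (-1.90), LAMTOR4 (-2.29), TBC1D7 (-1.24), TTI1 (1.78), TELO2 (2.49), EIF4G1 (2.07), EIF4A2 (1.75) and PDCD4 (1.44). For LARP1 the light-fraction fall made most of the difference (-1.42 against 0.14 on polysomes). For EIF4EBP1 both effects passed, in opposite directions. All these differences use the sorafenib light libraries, the group with the lowest depth and the least alike replicates. The interaction was refitted with libraries left out for the mTORC1 genes, not for the list genes.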

How the results depend on the processing

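Of 499 alternatives to the 24 called results of the mTORC1 genes, 0 turned direction and 18 lost the call, and 47 alternatives to uncalled results gained one. The cause was not tested. With library totals only, 3 genes were called higher in the light pool (all genes 24.4%) and 2 lower in the difference of effects (16%). Between pools, 5 were called higher and 0 lower in vehicle cells (all genes 48.9% and 5.86%). In sorafenib cells 6 were higher and 1 lower (37.4% and 6.11%). TMM within each fraction leaves the pools tied by library totals, and gave 5 higher in vehicle cells and 7 higher and 0 lower in sorafenib cells, where 39.7%, 47.1% and 4.95% of all genes were so called. Without a low-count filter, 0 were higher in the light pool (all genes 3.16%). Between pools in sorafenib cells 6 were then higher and 0 lower (10.3% and 5.42%). With the replicate block (the number between treatments, the culture between pools), 4 were higher between pools in sorafenib cells (all genes 15.2%). Numbers shared across treatments did not pair (correlations of -0.20 to 0.02). Leaving out 1 library gave 1 to 2 genes higher between pools in vehicle cells (1 without vehicle polysome library 3, against 13.4% of all genes). It gave 1 to 2 lower in sorafenib cells (1 without sorafenib light library 1 or 3, against 6.11% and 13.4%). Without sorafenib light libraries 1 and 2 together, 1 sample was left in that group. In the light pool AKT1S1 was then at -0.79 and LARP1 at -1.01, against -0.91 and -1.42 in the main fit.

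All turned values were uncalled on both sides. For the light-pool effect of MTOR they were 0.0096 with DESeq2 size factors, 0.39 with totals, 0.030 within fractions, 0.035 with the deepest library as reference, 0.044 by DESeq2 and 0.086 with the compared groups alone. Between pools in vehicle cells, in that order of size factors, deepest reference and DESeq2, DDIT4 was at -0.045, -0.13 and -0.045 and RPTOR at -0.035, -0.13 and -0.022. With totals, EIF4EBP2's difference of effects was -0.24, and between pools SESN2 was at 0.51 and MTOR at 0.24 in vehicle cells and AKT1S1 at 0.070 in sorafenib cells. Within fractions the last 3 were 0.25, 0.0036 and 0.27. Without a filter RHEB on polysomes was at 0.12 and AKT1S1 between pools in sorafenib cells at 0.096. With the replicate block SESN2 in the light pool was at -0.11, and between pools in vehicle cells DDIT4 was at -0.0057 and RPTOR at -0.0042. Without both shallow libraries RPTOR in the light pool was at -0.083. Leaving out 1 library gave -0.12 to 0.57 for RPTOR, -0.20 to 0.51 for SESN2 and -0.32 to 0.47 for MTOR in the light pool. It gave -0.48 to 0.12 for RHEB and -0.088 to 0.41 for LARP1 on polysomes, and -0.034 to 0.49 for EIF4EBP2's difference of effects. Between pools in vehicle cells it gave -0.12 to 0.12 for DDIT4 and -0.23 to 0.32 for RPTOR. Depth limits 7 of the genes in the shallowest library, where SESN2 had 1 count and TSC2, DDIT4, MTOR, LARP1, RPTOR and AKT1S1 had 8 to 12.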
